A study of Mus musculus with 8 samples.

Results

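The ABCA transporters are a family of large membrane proteins that use ATP to move sterols and phospholipids between the leaflets of membranes or out of cells, and 9 of their genes, Abca1, Abca2, Abca3, Abca5, Abca6, Abca7, Abca8a, Abca8b and Abca9, are described here out of 19938 genes measured in mouse muscle. They were taken by gene symbol, and each was read by 1 probe set, so the choice of the brightest probe set never had to be made. The group was chosen by the genotype difference of 1 gene, Abca5, which passed the test across all genes, together with its relatives, so the genotype difference of Abca5 is given as a description and not as a test. The muscle was gastrocnemius, the fast-fibred muscle of the calf, profiled on Affymetrix arrays. There were 4 KO samples, from Hdac5 knockout mice, and 4 WT samples, from wild type littermates. All were 30 weeks of age, ate low-fat chow and had no further treatment. The labels name no tissue-specific promoter or Cre line, and no source used here says which part of Hdac5 was deleted. They do not say that each sample came from a different animal, so a p-value here reflects how much these samples vary, which may be technical. HDAC5 is a histone deacetylase that holds back the transcription factor MEF2 in muscle, and the submitters asked what it does to interleukin 6 and to genes regulated by that cytokine.

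As background, a full ABCA transporter has a pair of membrane-spanning parts, each with a cytoplasmic domain that binds ATP. ABCA1 loads cholesterol and phospholipid onto lipid-poor apolipoprotein A-I, the first step in making high-density lipoprotein, and its gene is switched on by the sterol-sensing liver X receptors. ABCA5 sits in lysosomes and late endosomes, and mice that lack it develop a lysosomal disease with damage to the heart. In muscle tissue, fibres, fibroblasts, macrophages, fat cells and vessels can all supply these transcripts, and in RNA from whole muscle a change in the number of cells of a type and a change in RNA per cell cannot be told apart.

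Values are log2 signals as deposited. A difference of 1 on this scale is a doubling of signal, and differences are KO minus WT with limma's moderated standard error (SE). A gene passed when its p-value, adjusted by the Benjamini-Hochberg method over all 19938 genes, was under 0.05. Because probe sets bind their targets with different strength, percentiles of signal across genes give a position on the array and are not read as transcript abundance. Arrays correlated with one another at 0.988 to 0.995 over all probe sets, and array medians lay between 7.69 and 7.77. KO sample 1 and WT sample 4 were the arrays farthest apart on principal component 1. The targeted gene matched the labels: Hdac5 averaged 8.33 ± 0.04 in KO and 9.83 ± 0.08 in WT muscle (SD, n = 4 each), with an exact 2-sided permutation p of 0.0286, the smallest that 4 against 4 samples can give. Muscle fibre markers such as Acta1, the skeletal alpha-actin, and Atp2a1, the fast-fibre calcium pump, were near the top of the signal range in every sample, with a mean of 14.31 to 14.36 over 8 markers in KO and 14.34 to 14.36 in WT samples. All 8 had a lower mean in KO, with differences from -0.04 to -0.0063.

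Abca5, Abca6, Abca8a, Abca8b and Abca9 lie side by side on chromosome 11, in the order Abca8b, Abca8a, Abca9, Abca6, Abca5, with 0 other tested genes between them. Hdac5 lies on the same chromosome, with 106 tested genes between it and the cluster. The 250 bases upstream of the start sites of Abca5 and of the 3 cluster genes that had higher means in KO muscle alongside it are shown because these genes are neighbours whose means differed in the same direction. RefSeq (GRCm38.p6) supplied promoters for 8 of the 9 genes. Capitals mark GC boxes (GGGCGG), E-boxes (CACGTG), the nuclear receptor half-site AGGTCA, the half-site of liver X receptor elements, and the MEF2 motif, each searched on both strands.
Abca5, chr11:110337717-110337966, minus strand: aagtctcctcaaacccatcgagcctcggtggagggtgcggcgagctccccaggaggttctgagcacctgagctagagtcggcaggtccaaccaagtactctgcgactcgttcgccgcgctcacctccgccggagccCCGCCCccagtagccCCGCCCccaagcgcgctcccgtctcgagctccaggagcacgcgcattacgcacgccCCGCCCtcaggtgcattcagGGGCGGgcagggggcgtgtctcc
Abca8a, chr11:110095938-110096187, minus strand: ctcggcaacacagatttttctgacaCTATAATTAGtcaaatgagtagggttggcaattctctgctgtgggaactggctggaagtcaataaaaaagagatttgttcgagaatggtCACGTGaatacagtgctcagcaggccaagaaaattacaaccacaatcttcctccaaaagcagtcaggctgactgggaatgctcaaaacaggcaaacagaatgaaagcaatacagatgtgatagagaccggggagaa
Abca8b, chr11:109995846-109996095, minus strand: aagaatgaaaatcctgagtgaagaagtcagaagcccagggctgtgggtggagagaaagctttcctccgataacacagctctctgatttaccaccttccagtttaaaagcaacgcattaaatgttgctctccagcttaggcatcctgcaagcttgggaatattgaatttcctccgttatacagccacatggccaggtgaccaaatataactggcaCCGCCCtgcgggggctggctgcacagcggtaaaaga
Abca9, chr11:110168154-110168403, minus strand: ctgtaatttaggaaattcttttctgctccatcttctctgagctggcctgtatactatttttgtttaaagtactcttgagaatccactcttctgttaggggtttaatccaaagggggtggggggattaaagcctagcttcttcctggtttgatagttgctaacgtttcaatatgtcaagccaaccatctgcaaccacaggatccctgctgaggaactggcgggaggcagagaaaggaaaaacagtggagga
The Abca5 window differed in composition from those of its neighbours. It had a GC content of 69.2%, with 25 CpG dinucleotides and 4 GC boxes, while the median over 32851 promoter windows of this length was 52.4% GC and 6 CpG. Abca8a had 43.2% GC and 4 CpG, Abca8b 48.8% and 6, and Abca9 44.4% and 2. The remaining promoters found, those of Abca1, Abca2, Abca3 and Abca7, had a GC content of 58.8% to 67.6%. GC boxes were present in 32.7% of all windows and occurred once in Abca8b, Abca3 and Abca7 and at 2 places in Abca1. The MEF2 motif was present in 1 of the 8 windows, that of Abca8a, and in 0.508% of all windows. The E-box was found once each in Abca8a and Abca1 (6.02% of all windows), and AGGTCA in 0 of the 8 (14.0% of all windows). The motif overlapped no other in the Abca8a window, and a match is a description of letters, not of binding.

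Abca5 had the largest difference of the 9 genes. Its signals were 10.80, 10.57, 10.59 and 10.81 in KO samples 1 to 4, against 10.29, 10.04, 10.23 and 10.18 in WT samples 1 to 4. The lowest KO sample lay 0.28 above the highest WT sample. Abca5 averaged 10.69 ± 0.13 in KO and 10.18 ± 0.11 in WT muscle (SD, n = 4 each), a difference of 0.51 (SE 0.078, 95% interval 0.34 to 0.68), or 1.42-fold (interval 1.27 to 1.6). The limma adjusted p that led to its choice was 0.0447. It was the last of 13 genes to pass (0.0652% of the genes tested), so it stood at the edge of the threshold. Of the 9 members 1 passed higher and 0 lower in KO, where 0.0401% and 0.0251% of all genes did so, and nothing is read from that count because it is how the group was found.

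The place of Abca5 past the threshold needed all 8 arrays. With any 1 of them left out, its difference stayed between 0.46 and 0.55, but its adjusted p in limma was between 0.0668 and 0.150, so it passed in 0 of 8 such fits. This was not particular to Abca5, since of the 13 genes only 5 to 8 still passed in each of those fits, which had fewer samples. The Abca5 difference was 0.47 (SE 0.089, limma adjusted p = 0.25) without both KO sample 1 and WT sample 4, a setting added once the data had been seen. With the arrays rescaled by quantile normalization it was 0.50, and with array medians subtracted 0.52, and it passed in both. The plot of its value under each setting shows the difference moving little while its side of the threshold changed.

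**Figure D1:**
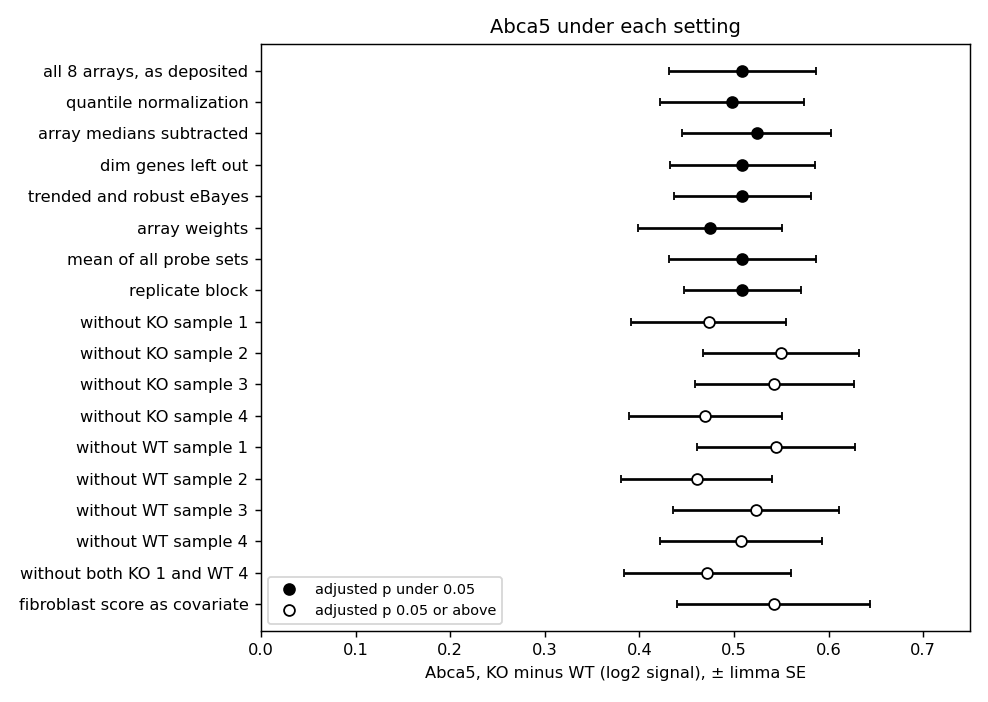
Difference of Abca5 between KO and WT muscle (x axis, log2 signal, bars ± limma SE) under each setting (y axis), with filled points where the adjusted p was under 0.05. The differences lie between 0.46 and 0.55, and the open points are the fits with arrays left out and the fit with the fibroblast score as covariate.

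The other cluster genes with higher means in KO muscle were Abca9, Abca8a and Abca8b, at differences of 0.23 to 0.26, and 0 of these 3 passed in limma. ABCA8 in humans moves cholesterol out of cells, and mice carry its gene as the pair Abca8a and Abca8b. Because these are closely related genes, their probe sets could in part read each other's transcripts, which was not tested. Abca8b had signals of 10.51, 10.42, 10.62 and 10.55 in KO samples 1 to 4, against 10.23, 10.40, 10.35 and 10.21 in WT samples 1 to 4. The groups did not overlap, although KO sample 2 and WT sample 2 were only 0.02 apart (difference 0.23, SE 0.067, limma adjusted p = 0.362). Abca8a had signals of 11.32, 11.11, 11.36 and 11.23 in KO samples 1 to 4, against 10.92, 11.04, 11.19 and 10.90 in WT samples 1 to 4. KO sample 2 lay below WT sample 3, so the genotypes overlapped (difference 0.24, SE 0.079, limma adjusted p = 0.442).

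Abca9, whose human counterpart falls when macrophages take up cholesterol, had signals of 9.95, 9.84, 9.98 and 9.85 in KO samples 1 to 4, against 9.66, 9.80, 9.75 and 9.37 in WT samples 1 to 4. The groups did not overlap, with a gap of 0.04, and WT sample 4 was the lowest by a wide margin (difference 0.26, SE 0.088, limma adjusted p = 0.459). Without WT sample 4 the difference was 0.17 (SE 0.063, limma adjusted p = 0.620). Over the 9 members, the KO samples lay wholly above the WT samples in 3, Abca5, Abca8b and Abca9, and wholly below in 0, where 2.91% and 1.99% of all genes did so. With an unadjusted limma p under 0.05 there were 4 members higher and 0 lower in KO, against 4.72% and 3.18% of all genes, and 3 higher without both KO sample 1 and WT sample 4. With the fibroblast covariate described later, 1 member had an unadjusted limma p under 0.05. The count over all 19938 genes fell as well, from 1576 with all 8 arrays to 1471 without both samples and 890 with the covariate. These counts belong to a group gathered around a gene known to differ, and the 5 cluster genes share a chromosome segment.

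Abca6 lies between Abca9 and Abca5 and had a lower mean in KO muscle. Its signals were 8.51, 8.79, 8.61 and 8.13 in KO samples 1 to 4, against 8.71, 8.82, 8.80 and 8.66 in WT samples 1 to 4. KO sample 4 was far below the rest, KO sample 2 was among the WT values, and the KO spread of 0.28 was larger than the WT spread of 0.08 (SD, n = 4 each). The difference was -0.24 (SE 0.114, limma adjusted p = 0.647), and it was -0.11 without KO sample 4. The array lowest for Abca6, KO sample 4, was the one highest for Abca5. Like ABCA9, human ABCA6 is known to respond to cholesterol loading of macrophages.

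**Figure D2:**
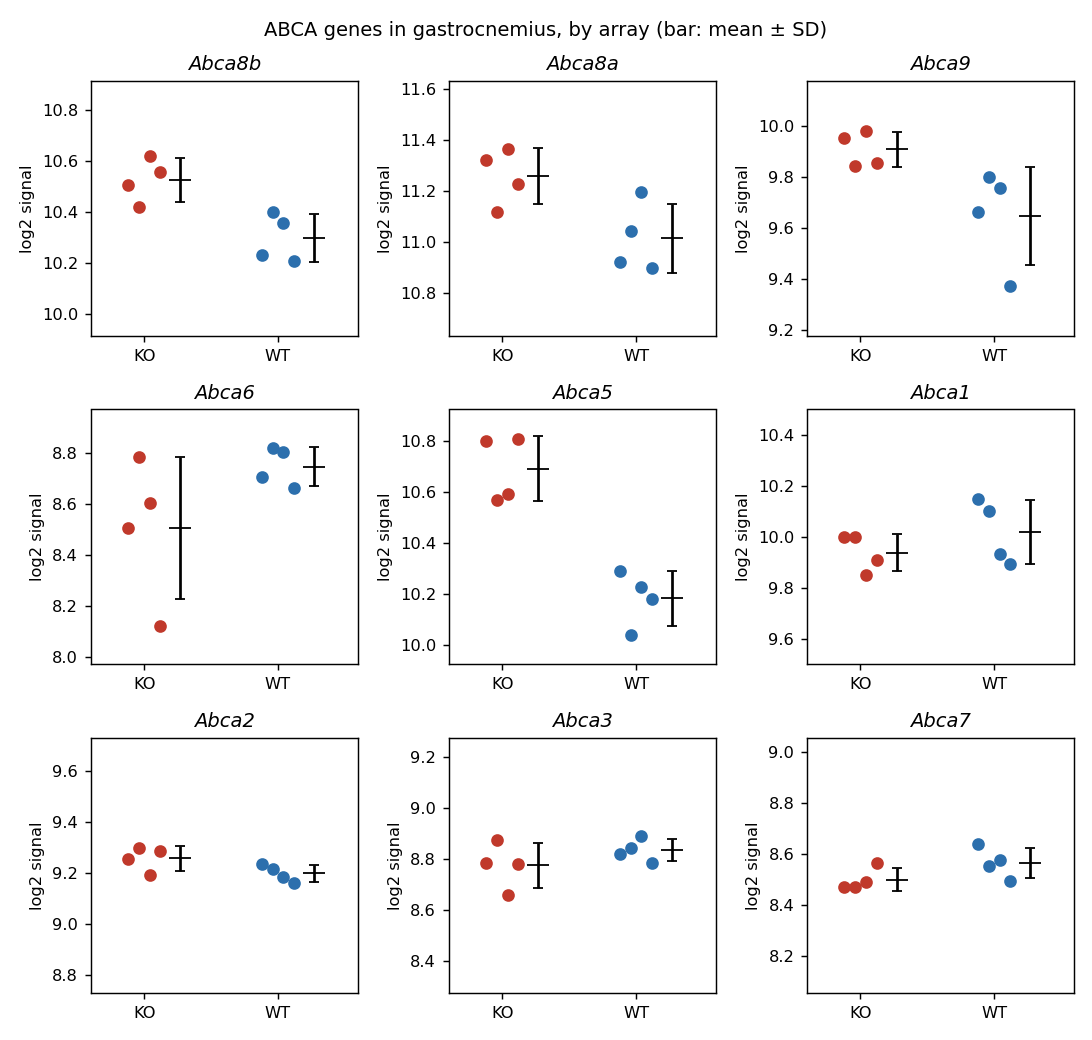
Log2 signal (y axis, each panel spanning 1 unit) of the 9 genes in each KO array and each WT array, with mean ± SD (n = 4 each) beside the points. The KO and WT points of Abca5, Abca8b and Abca9 do not overlap, with the widest gap, 0.28, in Abca5.

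The 4 members on other chromosomes did not pass, and in all 4 the genotypes overlapped. Abca1, on chromosome 4, had signals of 10.0002, 10.0005, 9.85 and 9.91 in KO samples 1 to 4, against 10.15, 10.11, 9.93 and 9.90 in WT samples 1 to 4, a difference of -0.08 (95% interval -0.24 to 0.07). Abca2, which handles sterols in endosomes and lysosomes and is abundant in myelin-forming cells of the brain, had signals of 9.25, 9.30, 9.19 and 9.29 in KO samples 1 to 4, against 9.24, 9.22, 9.18 and 9.16 in WT samples 1 to 4. KO samples 1, 2 and 4 lay just above the highest WT sample and KO sample 3 lay within the WT range, and the difference was 0.06 (95% interval -0.06 to 0.18). Abca3, which fills the lamellar bodies of the lung with surfactant lipid, had signals of 8.79, 8.88, 8.66 and 8.78 in KO samples 1 to 4, against 8.82, 8.85, 8.89 and 8.79 in WT samples 1 to 4, a difference of -0.06 (95% interval -0.19 to 0.07). Abca7, which takes part in phagocytosis and amyloid handling, had signals of 8.47, 8.47, 8.49 and 8.56 in KO samples 1 to 4, against 8.64, 8.55, 8.57 and 8.49 in WT samples 1 to 4, a difference of -0.07 (95% interval -0.19 to 0.06). Their limma adjusted p-values lay between 0.836 and 0.861, and all 4 intervals lay within -0.24 to 0.18.

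The 7 ABCA genes outside the group had lower signals and did not pass. Abca4, Abca12, Abca13, Abca14, Abca15, Abca16 and Abca17 lay between the 2.54th and the 28.7th percentile of all signals, while the 9 members lay between the 58.9th and the 92.3rd. Of the 7, 5 had a higher and 2 a lower mean in KO, with 0 past the threshold and 0 at an unadjusted limma p under 0.05. Their median difference was 0.01, beside 0.06 for the 9 members, 0.24 for the 5 cluster genes and 0.0030 for all genes. The smallest p among them was that of Abca14, on chromosome 7, at 6.76 ± 0.07 in KO and 6.62 ± 0.14 in WT muscle (SD, n = 4 each), a difference of 0.14 (SE 0.076, limma adjusted p = 0.701). Abca15 differed by -0.09 and Abca16 by -0.04.

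**Figure D3:**
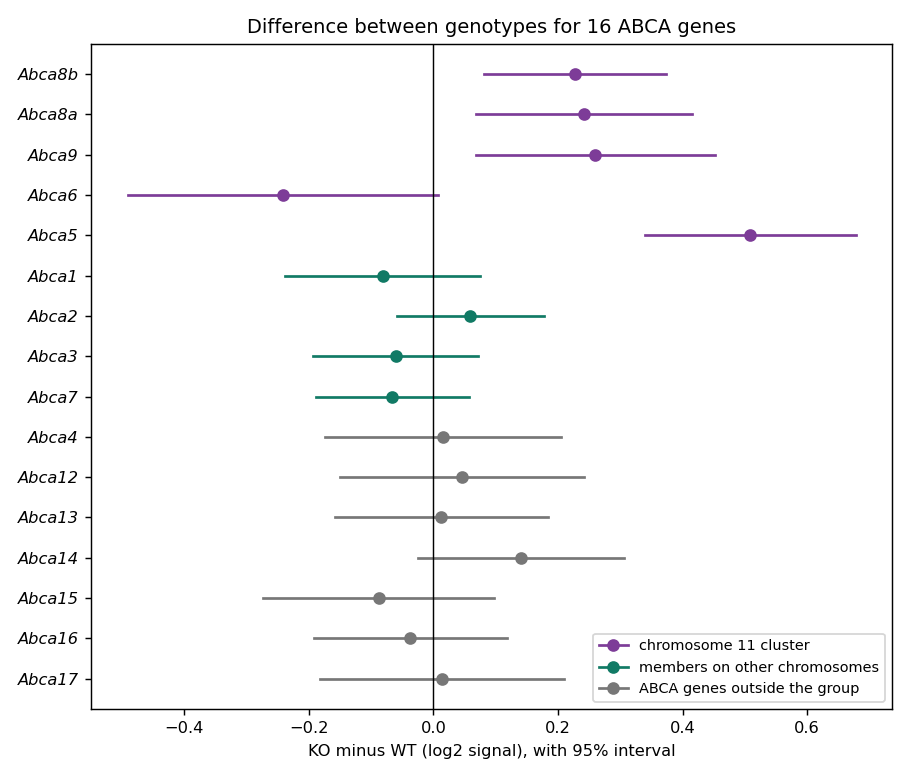
KO minus WT difference in log2 signal (x axis) with its 95% interval for 16 ABCA genes (y axis), coloured by whether they lie in the chromosome 11 cluster, elsewhere among the 9, or outside the group. Only the intervals of Abca5, Abca8a, Abca8b and Abca9 lie wholly to one side of 0.

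The next tested gene on the Abca8b side, the unnamed transcript 1700012B07Rik, differed by 0.0087, and the next on the Abca5 side, Map2k6, a kinase that activates p38, differed by 0.01 (11.25 ± 0.22 in KO and 11.24 ± 0.10 in WT muscle, SD, n = 4 each). Of the 20 neighbours, 10 on each side, 8 had a higher and 12 a lower mean in KO, 0 passed, and the median difference was -0.01. The groups did not overlap in 3 of the 20, where 4.90% of all genes did not. All 3 lay on the side towards Hdac5. Slc16a6, a monocarboxylate transporter, had signals of 9.17, 9.14, 9.16 and 8.85 in KO samples 1 to 4, against 8.78, 8.67, 8.72 and 8.60 in WT samples 1 to 4 (difference 0.39, SE 0.079, limma adjusted p = 0.131). It passed without KO sample 4, its lowest KO sample, at 0.47 (limma adjusted p = 0.0256), and with array weights at 0.40 (limma adjusted p = 0.0481). Gna13, a G protein subunit that signals to the cytoskeleton, differed by -0.24 (SE 0.073, limma adjusted p = 0.378) and the gene model Gm11696 by -0.19 (SE 0.065, limma adjusted p = 0.453).

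Gene targeting can leave donor-strain chromosome beside the targeted gene, so the stretch from Hdac5 to the cluster was described as well. Its 106 tested genes include the 10 neighbours on the Hdac5 side of the cluster, so Slc16a6, Gna13 and Gm11696 are counted again here. Of the 106, 0 passed, and 55 had a higher and 51 a lower mean in KO. At an unadjusted limma p under 0.05 there were 9 higher and 7 lower (15.1%, against 7.90% of all genes), and in 14 the groups did not overlap (13.2%, against 4.90%). The smallest p-values were those of Fzd2, a Wnt receptor (difference 0.44, SE 0.070, limma adjusted p = 0.0535), Ccdc43 (-0.39, SE 0.066, limma adjusted p = 0.0739) and Ace, the angiotensin-converting enzyme (0.37, SE 0.067, limma adjusted p = 0.0763). The labels used here name no strain background, and the loss of Hdac5 and any donor-strain segment around it cannot be told apart.

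**Figure D4:**
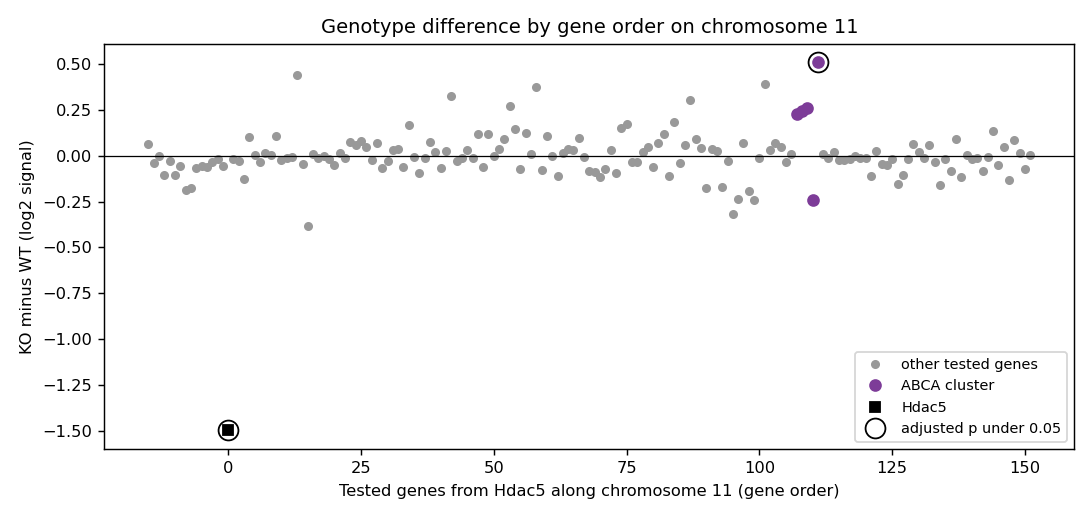
KO minus WT difference in log2 signal (y axis) of tested genes ordered along chromosome 11 (x axis, number of tested genes from Hdac5), with the ABCA cluster coloured and genes with an adjusted p under 0.05 circled. Abca5 at 0.51 and Hdac5 at -1.50 are the circled genes, and Abca6 at -0.24 lies below 0 among its neighbours.

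Fibroblast and macrophage markers both moved with Abca8a, Abca8b and Abca9. The mean of 11 fibroblast markers was 10.23, 9.98, 10.25 and 10.10 in KO samples 1 to 4, against 9.92, 10.15, 9.96 and 9.84 in WT samples 1 to 4, so the genotypes overlapped. All 11 markers had a higher mean in KO (8 of 11 without both KO sample 1 and WT sample 4), among them the brightest, Dcn, a matrix proteoglycan, at a difference of 0.08 (SE 0.055), and the collagen Col1a2 at 0.05 (SE 0.095). The mean of 12 macrophage markers was 8.68, 8.46, 8.76 and 8.51 in KO samples 1 to 4, against 8.27, 8.52, 8.31 and 8.22 in WT samples 1 to 4, and it ordered the samples within each genotype as the fibroblast mean did. The median difference was 0.30 over the macrophage markers and 0.16 over the fibroblast markers. At an unadjusted limma p under 0.05, 8 of 12 and 4 of 11 were higher in KO (66.7% and 36.4%, against 4.72% of all genes). KO samples lay wholly above WT samples in 2 of 12 and 0 of 11, where 2.91% of all genes did so. Within the KO samples Abca8a and Abca9 followed the sample order of the marker means, with sample 3 highest and sample 2 lowest, while Abca8b had sample 4 above sample 1. Within the WT samples Abca8b and Abca9 followed it, with sample 2 highest and sample 4 lowest, while Abca8a had sample 3 above sample 2. With the fibroblast mean as a covariate, a setting added once the data had been seen, the differences were 0.13 for Abca8a (SE 0.090), 0.13 for Abca8b (SE 0.075) and 0.11 for Abca9 (SE 0.090), each smaller by more than 1.5 times. The same covariate brought the median difference of the macrophage markers to 0.10, so it does not set fibroblasts apart from macrophages. For Abca5, WT sample 2 was the lowest WT sample and the highest for both marker means, and KO sample 2 was the lowest KO sample for Abca5 and for both marker means. Its difference was 0.54 (SE 0.102, limma adjusted p = 0.328) with the covariate.

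**Figure D5:**
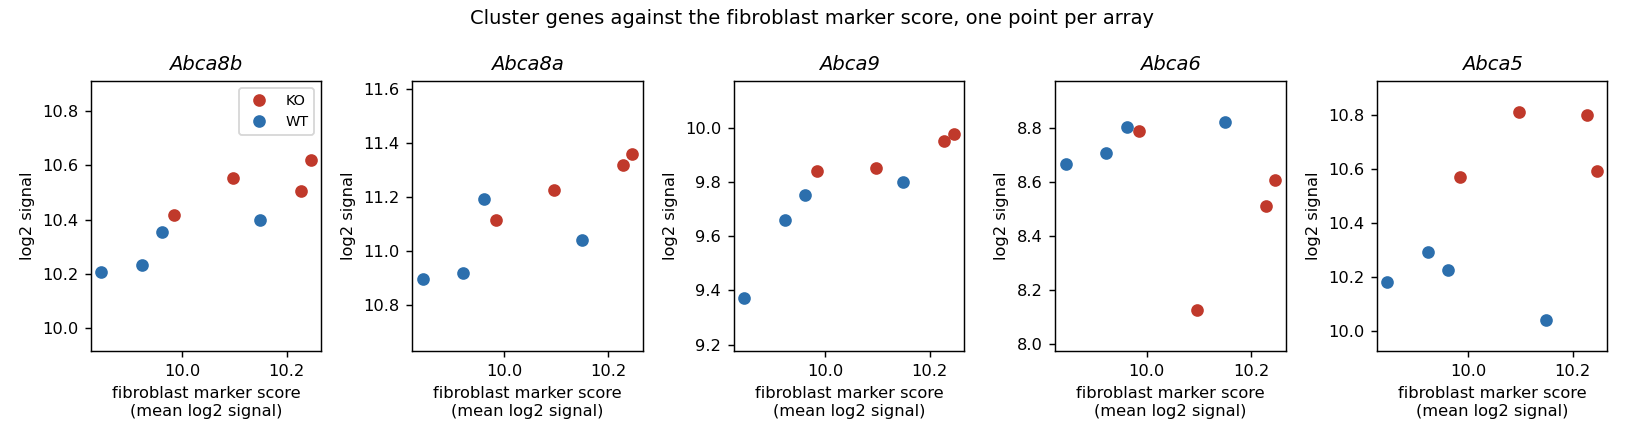
Log2 signal of the 5 cluster genes (y axis, each panel spanning 1 unit) against the mean log2 signal of 11 fibroblast markers (x axis), 1 point for each KO array and each WT array. Points of Abca8b, Abca8a and Abca9 tend to run upward from left to right across both genotypes, while the KO and WT points of Abca5 form separate bands.

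Of the 12 macrophage markers 10 had a higher mean in KO, with Lyz2, a lysozyme, at a difference of 0.51 (SE 0.134) and Mrc1, a mannose receptor, at 0.38 (SE 0.114). The mean of 7 adipocyte markers was 8.89 to 9.22 in KO and 8.24 to 9.88 in WT samples, with the fatty acid carrier Fabp4 at a difference of 0.05 and the adipokine Retn at -0.05. The mean of 8 endothelial markers was 10.09 to 10.42 in KO and 10.16 to 10.35 in WT samples, with Cdh5, a junction cadherin, at -0.0048 and Flt1, a receptor for vascular growth factors, at -0.10. The mean of 8 vessel wall markers was 9.44 to 9.71 in KO and 9.51 to 9.67 in WT samples, with 3 higher and 5 lower in KO and differences from -0.46 to 0.46. At an unadjusted limma p under 0.05, 2 were higher and 3 lower (62.5%, against 7.90% of all genes). The KO samples lay wholly above the WT samples in 1 and wholly below in 2 (37.5%, against 4.90% of all genes). Acta2, the smooth muscle actin, differed by 0.46 (SE 0.101) and Rgs5, a pericyte gene, by -0.01. Schwann cell markers (5 measured) averaged 8.12 to 8.38 in KO and 8.31 to 8.62 in WT samples, with the myelin genes Pmp22 at -0.21 and Mbp at -0.29. All 5 had a lower mean in KO, 2 of them at an unadjusted limma p under 0.05 (40.0%, against 7.90% of all genes). In 1 of the 5 the groups did not overlap (20.0%, against 4.90% of all genes). In every one of these lists the marker means of the genotypes overlapped, and the dimmest marker, Mag, lay at the 31.1st percentile of all signals. What part fibroblasts, macrophages, Schwann cells or vessel wall cells had in the differences of the ABCA genes was not tested. The covariate fit cannot decide it for fibroblasts, because their marker mean was itself higher on average in KO (10.14 against 9.97).

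Other genes of the pathways in which these transporters work did not pass. Of 34 measured ABC transporters outside class A, 19 had a higher and 15 a lower mean in KO, with a median difference of 0.02 and 0 past the threshold. The smallest p-values were those of the drug exporter Abcb1b (-0.24, SE 0.110), the phosphatidylcholine transporter Abcb4 (0.12, SE 0.058) and the peroxisomal transporter Abcd3 (0.11, SE 0.059). Of 22 genes of sterol efflux and liver X receptor signalling 0 passed, and 3 were higher and 1 lower in KO at an unadjusted limma p under 0.05 (18.2%, against 7.90% of all genes). Among them Rxrg, a retinoid X receptor that pairs with liver X receptors, was 10.94, 10.79, 10.75 and 10.71 in KO samples 1 to 4, against 10.68, 10.64, 10.58 and 10.62 in WT samples 1 to 4, without overlap (difference 0.16, SE 0.063, limma adjusted p = 0.524). Pltp, a phospholipid transfer protein and liver X receptor target, differed by 0.20 (SE 0.086, limma adjusted p = 0.586). The third of the 3 higher genes was Lipa, which is also counted among the lysosomal genes below. The differences in this list ran from -0.42 to 0.20, with a median of 0.02. Rxrg was the 1 gene of the 22 without overlap (4.55%, against 4.90% of all genes).

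Lysosomal genes were measured because ABCA5 resides in that compartment. Of 24, 13 had a higher and 11 a lower mean in KO, with a median difference of 0.01, 0 past the threshold and 2 higher at an unadjusted limma p under 0.05 (8.33%, against 7.90% of all genes). Asah1, the acid ceramidase, was 9.88, 9.92, 9.94 and 9.94 in KO samples 1 to 4, against 9.71, 9.85, 9.83 and 9.68 in WT samples 1 to 4, a narrow separation (difference 0.15, SE 0.060, limma adjusted p = 0.536). Lipa, the acid lipase that frees cholesterol in lysosomes, differed by 0.20 (SE 0.092, limma adjusted p = 0.619), and Gaa, the acid glucosidase of glycogen breakdown, by -0.11 (SE 0.056, limma adjusted p = 0.659). Gaa was 11.44, 11.48, 11.57 and 11.53 in KO samples 1 to 4, against 11.68, 11.60, 11.60 and 11.57 in WT samples 1 to 4, so its groups did not overlap either, with KO wholly below WT by a gap of 0.0066. Asah1 and Gaa were the only genes of the 24 without overlap (8.33%, against 4.90% of all genes).

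The genes whose profile over the 8 arrays was most like that of Abca5 were Gdap1, a mitochondrial outer membrane protein, Rnf141, Cmbl, a hydrolase, Ppp6r2, a subunit of protein phosphatase 6, and Cpq, a secreted carboxypeptidase. Their Pearson r with Abca5 ran from 0.953 to 0.964 and their Spearman rho from 0.929 to 0.952 over 8 arrays, and r stayed between 0.934 and 0.996 without KO sample 4 and WT sample 2, the arrays farthest from the median of Abca5. All 5 had higher means in KO, since Abca5 itself was picked for its genotype difference, and Cmbl had the largest, 0.82. After each genotype's mean was subtracted, the genes most like Abca5 were Zfp458, Dlg1, a scaffold protein, Copz1, a coatomer subunit, Magt1 and Kansl1l, with r from 0.917 to 0.944, and their genotype differences lay between -0.04 and 0.09. On that scale the neighbours of Abca5 had r of 0.05 for Abca8a, -0.146 for Abca9, -0.217 for Abca8b and -0.692 for Abca6, while 95% of all genes lay between -0.649 and 0.673. Without KO sample 2 and WT sample 2, the arrays farthest from the median of Abca5 on that scale, r was -0.279 for Abca8a, 0.0519 for Abca9, -0.401 for Abca8b and -0.554 for Abca6, so 2 of the 4 changed sign. These r values are descriptions of 8 arrays that share processing, picked as extremes of 9968 brighter genes for the lists of 5.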

How the data were processed

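The table the authors deposited holds log2 signals of probe sets, 1 column per array. It came from Affymetrix Expression Console 4.0, per the submitters' processing notes. How background, summarisation and normalization were handled is not stated in the labels, and the scale was inferred from the range of the values. Per the labels' protocols, 150 ng of total RNA with an integrity number above 8 was amplified and labelled for each array.

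Of 35556 probe sets, the platform annotation gave 1 symbol to 21789 and several to 1621, and did not list 12146. Of those with 1 symbol, 21698 matched the RefSeq gene table (GRCm38.p6) by Entrez identifier, used for names and gene order. No label names the build behind the array annotation. For 999 genes with several probe sets the one of highest mean was taken. KO and WT were compared with limma 3.58.1 in R 4.3.3 (lmFit and eBayes, genotype as the only term) over 19938 genes without a filter, with Benjamini-Hochberg adjustment. The number of arrays limits the precision. The fit was tested on simulated data of 4 against 4 arrays with independent normal noise, where it recovered 82.0% of differences of 0.5. More genes were changed there than passed here, which loosens the adjusted threshold, so this share does not carry over to these data. Hdac5 was also compared by an exact permutation test over 70 arrangements. Motifs and orders were computed in Python 3.11.15 and plots drawn with matplotlib 3.10.9.

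Members and lists were chosen with earlier results of these data known. Named genes are the 9 members, Hdac5, the 3 of smallest p in each pathway list and among neighbours with any past the threshold, the direct neighbours of the cluster, the 5 genes most like Abca5 on each scale, and the 2 brightest of each marker list. Further genes are named as background. The stretch between Hdac5 and the cluster was added after the values were seen. Alternatives were quantile normalization, median subtraction, a filter on the dimmest 25% of genes, trended and robust eBayes, array weights, the mean of all probe sets, a block on sample number, and leaving out each sample.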

Additional observations from a re-analysis of the deposited data

Results flagged for a closer look

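Among the 9 ABCA genes, Hdac5 and 7 marker scores, each screened within the KO and the WT samples (34 groups of 4), 1 sample stood apart from its group by Dixon's criterion. Hdac5 was 8.39 in KO sample 4, against 8.31 to 8.32 in the other KO samples, a gap that took 0.884 of the group's range. Chance marks about 1 in 20 such groups. No sample of the 9 ABCA genes stood apart by this criterion, including KO sample 4 for Abca6 and WT sample 4 for Abca9.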

How the results depend on the processing

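Of the 9 ABCA genes, each kept its direction under all 17 alternatives. Some of these could not change it. The filter on dim genes, trended and robust eBayes, the mean of all probe sets and the block on sample number left each member's difference as it was, since each had 1 probe set. The number past the threshold was 1 with all 8 arrays, 0 with any 1 sample left out, 0 without both KO sample 1 and WT sample 4, and 0 with the fibroblast score as covariate, the last 2 chosen after seeing the data. With fewer samples, or a further term, fewer residual degrees of freedom remain. The adjusted p of Abca5 in limma ran from 0.0139 with trended and robust eBayes to 0.328 with the covariate. Over all genes, 13 passed as reported, 23 after quantile normalization, 36 with dim genes left out, 44 with trended and robust eBayes, 31 with array weights, 5 to 20 with any 1 sample left out, 5 without both KO sample 1 and WT sample 4, and 3 with the covariate. Among the pathway and neighbour lists 0 genes passed, 1 with array weights and 0 to 1 with any 1 sample left out, each time Slc16a6. Signal over background was not analysed here.

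With the sample number in the titles as a replicate block, 30 genes passed, 12 of them among the 13, Abca5 with an adjusted p of 0.0269 in limma. The labels do not say that the number pairs the samples. The deviations of same-numbered samples correlated at 0.338, -0.115, -0.153 and 0.340, and 4 of 8 samples correlated best with their own number. Whether same-numbered samples share more than the number was not tested.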
